A study of Mus musculus with 12 samples.

Results

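Motile cilia axoneme genes, the genes for the moving core of the cilia that clear mucus from the airways, were examined in lungs exposed to LPS with and without the IL-10 made by B cells. They were taken by symbol as all genes whose names begin with Dnah, Dnai, Dnal, Dnaic, Rsph, Cfap, Tekt or Drc followed by a digit, whatever their expression, which gave 73 of the 55414 genes in the table. No axoneme gene passed the test between the genotypes, which was near the share of all genes tested (0.495%). Of the 66 genes that could be tested, 57 had a lower mean when B cells lacked Il10, against 36.8% of all genes tested. The median log2 fold change of the 66 was -0.22, against 0.10 over all genes tested. Most of the 66 genes lay above their own median over all lungs in 3 lungs of each genotype, and few did in the other 3. Sides of equal size are largely built in by the use of a median. The split was not clean when set against all genes tested. In a high lung whose B cells lacked Il10 (replicate 3), 62.1% of the genes were above it, against 71.5% of all genes tested. In a low control lung (replicate 5), 21.2% were above it, against 11.4%.

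Whole-lung RNA from 12 LPS-exposed mice was sequenced on the fourth day. In 6 IL-10 B-KO mice, floxed Il10 was deleted by Mb1-Cre, which is active from early in the B cell lineage, and 6 IL-10 B-WT mice were the controls. All mice had the C57BL/6J background and were described as matched for age and sex, and their age and pooling are not given in the sources used here. Each value is in TPM (transcripts scaled to a fixed library total), which are corrected for gene length, and the sequencing depth behind them is unknown.

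The axoneme is a ring of microtubule doublets around a central pair. Outer and inner dynein arms on the doublets generate the beat, radial spokes and the central apparatus control it, the nexin-dynein regulatory complex links neighbouring doublets, and tektins and other inner proteins line the doublets. In the lung these structures belong to multiciliated cells of the airways, whose program is driven by the transcription factor Foxj1 together with RFX factors, and inherited loss of single components causes primary ciliary dyskinesia. In RNA of a whole lung, fewer ciliated cells and less RNA per cell cannot be told apart.

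The names were first compared with the annotation in the table. Terms for the cilium, axoneme or flagellum were attached to 60 of the 73 genes (82.2%), against 1.62% of all genes, and terms for dynein to 25. Of the 73 genes, 72 are protein coding and 1, Dnah2os, is an antisense RNA of Dnah2. The genes lie on 19 chromosomes. Exon bases are shared with another gene in 31 cases, in 29 of them with a gene on the opposite strand, and strand is not stated for the counting, so that their values may hold reads of the neighbour. The coding copies Dnah7a, Dnah7b and Dnah7c have transcripts that are 96.8% to 97.3% identical and Rsph3a and Rsph3b are 95.1% identical, so that the split of reads within each family is uncertain. The spermatid genes Prm1, Prm2, Tnp1, Tnp2, Odf1, Akap4, Acrv1 and Spem1 summed to at most 3.74 TPM in any lung, with Tnp1 and Odf1 at 0 throughout, although 20 axoneme genes carry terms for sperm or flagella.

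Promoters are shown because RFX factors bind the X-box, an inverted repeat whose arm reads GTTGCC. RefSeq promoters (GRCm38.p6) were matched by symbol for 60 of the 73 genes, and the 250 bases before the start were searched on both strands. The arm GTTGCC was present upstream of 18 of the 60 genes (30.0%), against 11.8% of 27025 genes. The facing pair of arms GTTNCC and GGNAAC, whose letters overlap the arm motif, was present in 2 (3.33%, against 0.788%), and the forkhead core TGTTTAC, of the family that Foxj1 belongs to, in 4 (6.67%, against 3.54%). These are matches of letters only, not tested for binding. The 6 best expressed genes that had the arm and a RefSeq start at most 20 bases from the GENCODE one are given 5′ to 3′ along the gene, with GTTGCC or its reverse complement GGCAAC in capitals. They are Cfap20 at chr8:95434870-95435119 on the minus strand, Dnai2 at chr11:114727169-114727418 on the plus strand, Tekt2 at chr4:126325689-126325938 on the minus strand, Cfap46 at chr7:139683816-139684065 on the minus strand, Cfap44 at chr16:44394549-44394798 on the plus strand and Drc1 at chr5:30281143-30281392 on the plus strand.
Cfap20: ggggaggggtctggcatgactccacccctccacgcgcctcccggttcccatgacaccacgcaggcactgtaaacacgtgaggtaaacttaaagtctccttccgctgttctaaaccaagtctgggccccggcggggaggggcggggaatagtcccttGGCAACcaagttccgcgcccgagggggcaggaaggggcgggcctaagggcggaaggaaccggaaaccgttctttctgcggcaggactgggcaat
Dnai2: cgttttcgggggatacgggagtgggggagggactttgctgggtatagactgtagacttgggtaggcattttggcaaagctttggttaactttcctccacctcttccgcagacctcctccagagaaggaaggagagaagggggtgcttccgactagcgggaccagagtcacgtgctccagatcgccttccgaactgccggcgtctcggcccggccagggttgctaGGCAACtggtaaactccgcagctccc
Tekt2: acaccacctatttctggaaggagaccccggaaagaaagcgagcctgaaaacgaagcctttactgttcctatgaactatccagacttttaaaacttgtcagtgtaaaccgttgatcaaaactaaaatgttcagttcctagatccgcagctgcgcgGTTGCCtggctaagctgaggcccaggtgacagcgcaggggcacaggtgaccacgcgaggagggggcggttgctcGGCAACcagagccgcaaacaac
Cfap46: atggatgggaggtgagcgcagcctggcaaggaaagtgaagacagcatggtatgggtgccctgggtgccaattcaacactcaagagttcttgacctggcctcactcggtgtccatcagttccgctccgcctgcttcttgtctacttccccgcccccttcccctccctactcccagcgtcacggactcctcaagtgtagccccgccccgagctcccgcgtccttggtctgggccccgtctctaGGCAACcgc
Cfap44: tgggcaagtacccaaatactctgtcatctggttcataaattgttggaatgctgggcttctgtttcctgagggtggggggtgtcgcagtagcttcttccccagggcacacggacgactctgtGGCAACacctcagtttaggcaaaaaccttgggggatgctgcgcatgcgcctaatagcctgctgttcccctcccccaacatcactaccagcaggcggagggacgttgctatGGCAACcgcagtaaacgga
Drc1: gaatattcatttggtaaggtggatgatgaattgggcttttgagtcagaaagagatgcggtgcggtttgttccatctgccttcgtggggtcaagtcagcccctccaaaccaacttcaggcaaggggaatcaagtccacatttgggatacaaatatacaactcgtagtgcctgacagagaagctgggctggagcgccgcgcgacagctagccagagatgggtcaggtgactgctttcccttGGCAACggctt
In Dnai2, Tekt2, Cfap46, Cfap44 and Drc1 the nearest arm began at most 26 bases before the start, and in Cfap20 it began 94 bases before it.

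The axoneme genes were expressed at low to moderate levels. Of the 73 genes, 52 reached 1 TPM in every lung, 49 had a mean between 1 and 10 TPM, 8 had a mean above 20 TPM, and 7 did not reach the filter of 1 TPM in at least 6 lungs and were not tested. Cfap97d1 was listed at 0 in all 12 lungs and Rsph6a, a spoke protein gene of the testis, at 0 in 11 of them. The other 5 untested genes were Dnah14, Dnah17, Dnah7c, Cfap47 and Cfap99, with means below 1 TPM. The highest mean was that of Cfap20, which encodes a protein at the inner junction of the doublets, at 47.6 TPM. Cfap126 (44.8 TPM) and Rsph1 (43.0 TPM) came next, and these 3 means lay within the spread between lungs.

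The level of all 73 genes, taken as the mean of log2(TPM + 1) in each lung, was 2.69 ± 0.29 (SD, n = 6) for IL-10 B-WT and 2.47 ± 0.47 (SD, n = 6) for IL-10 B-KO. In IL-10 B-WT replicates 1 to 6 it was 2.40, 2.90, 2.44, 2.98, 2.41 and 2.97, and in IL-10 B-KO replicates 1 to 6 it was 2.73, 3.16, 2.66, 2.26, 1.98 and 2.01. The highest lung and the 3 lowest lungs were IL-10 B-KO lungs, and all IL-10 B-WT lungs lay between them. The difference of -0.22 (log2) was thus smaller than the SD of either group. Without IL-10 B-KO replicate 5 or 6 it was -0.12 or -0.13, and without IL-10 B-KO replicate 2 it was -0.36.

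**Figure D1:**
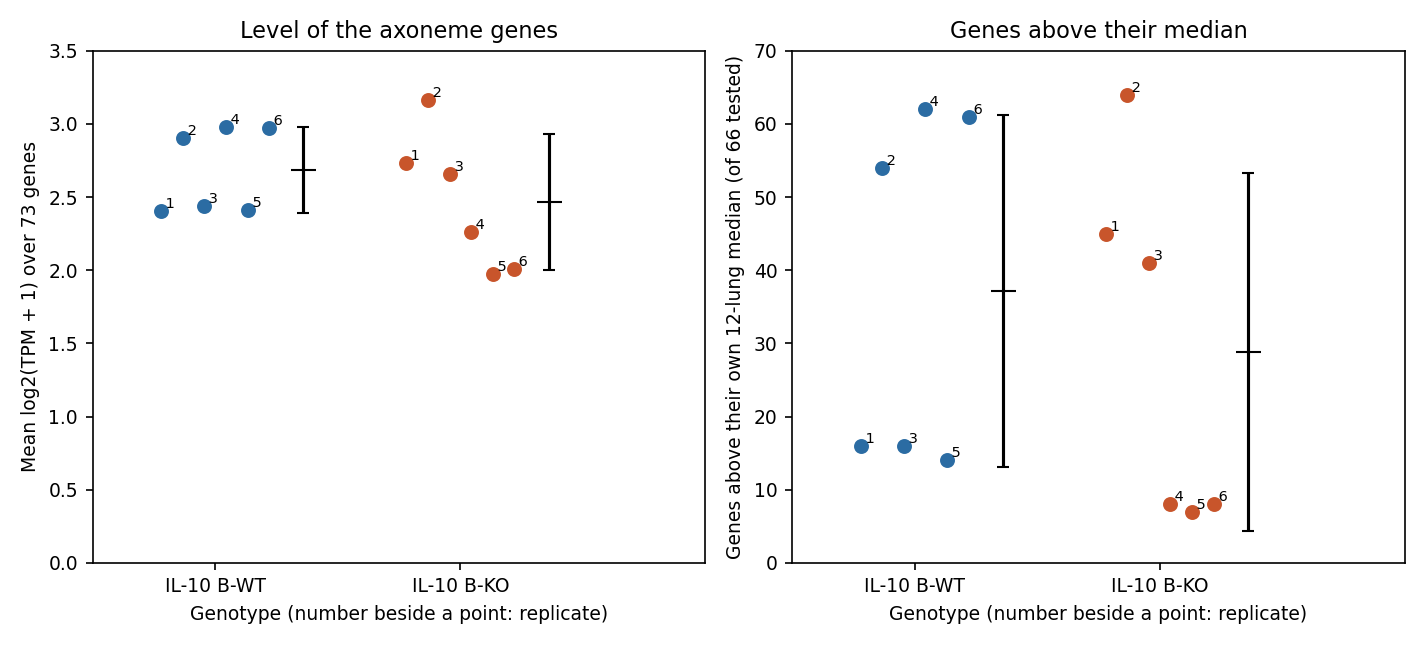
Each point is 1 lung, with the replicate number beside it, and the bar gives the mean and SD of 6 lungs. The left panel plots the mean log2(TPM + 1) over the 73 genes, from 1.98 to 3.16, where the groups overlap from 2.40 to 2.98. The right panel counts the tested genes above their own 12-lung median, from 7 to 64 of 66.

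Each tested gene was next set against its own median over the 12 lungs. For any gene at most 6 lungs can lie above its median, so that sides of equal size are largely built in. In IL-10 B-WT replicates 2, 4 and 6, 54, 62 and 61 of the 66 genes were above their median, and in IL-10 B-KO replicates 1, 2 and 3 there were 45, 64 and 41. In IL-10 B-WT replicates 1, 3 and 5 only 16, 16 and 14 genes were above it, and in IL-10 B-KO replicates 4, 5 and 6 there were 8, 7 and 8. No lung lay between 16 and 41 genes, and each side held 3 lungs of each genotype. Over all 15148 tested genes the share above the median ran in another order, with IL-10 B-WT replicate 1 highest (74.0%) and IL-10 B-WT replicate 5 lowest (11.4%). The axoneme share exceeded the share of all tested genes on the high side and fell below it on the low side, with exceptions. In IL-10 B-KO replicate 3 it was 62.1% against 71.5%, and in IL-10 B-WT replicate 5 it was 21.2% against 11.4%. The shares of IL-10 B-KO replicate 1 were close, at 68.2% and 60.7%.

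Single lungs carried most of the extremes. IL-10 B-KO replicate 2 was among the 3 highest lungs for 53 of the 66 genes (80.3%), against 17.4% of all tested genes. IL-10 B-KO replicates 5 and 6 were among the 3 lowest lungs for 54 and 49 of them (81.8% and 74.2%), against 24.5% and 27.0% of all tested genes. The lowest lung was IL-10 B-KO replicate 5 or 6 for 44 genes and IL-10 B-WT replicate 5 for 11. The last lung was among the 3 lowest for 22 axoneme genes (33.3%) and for 79.3% of all tested genes.

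**Figure D2:**
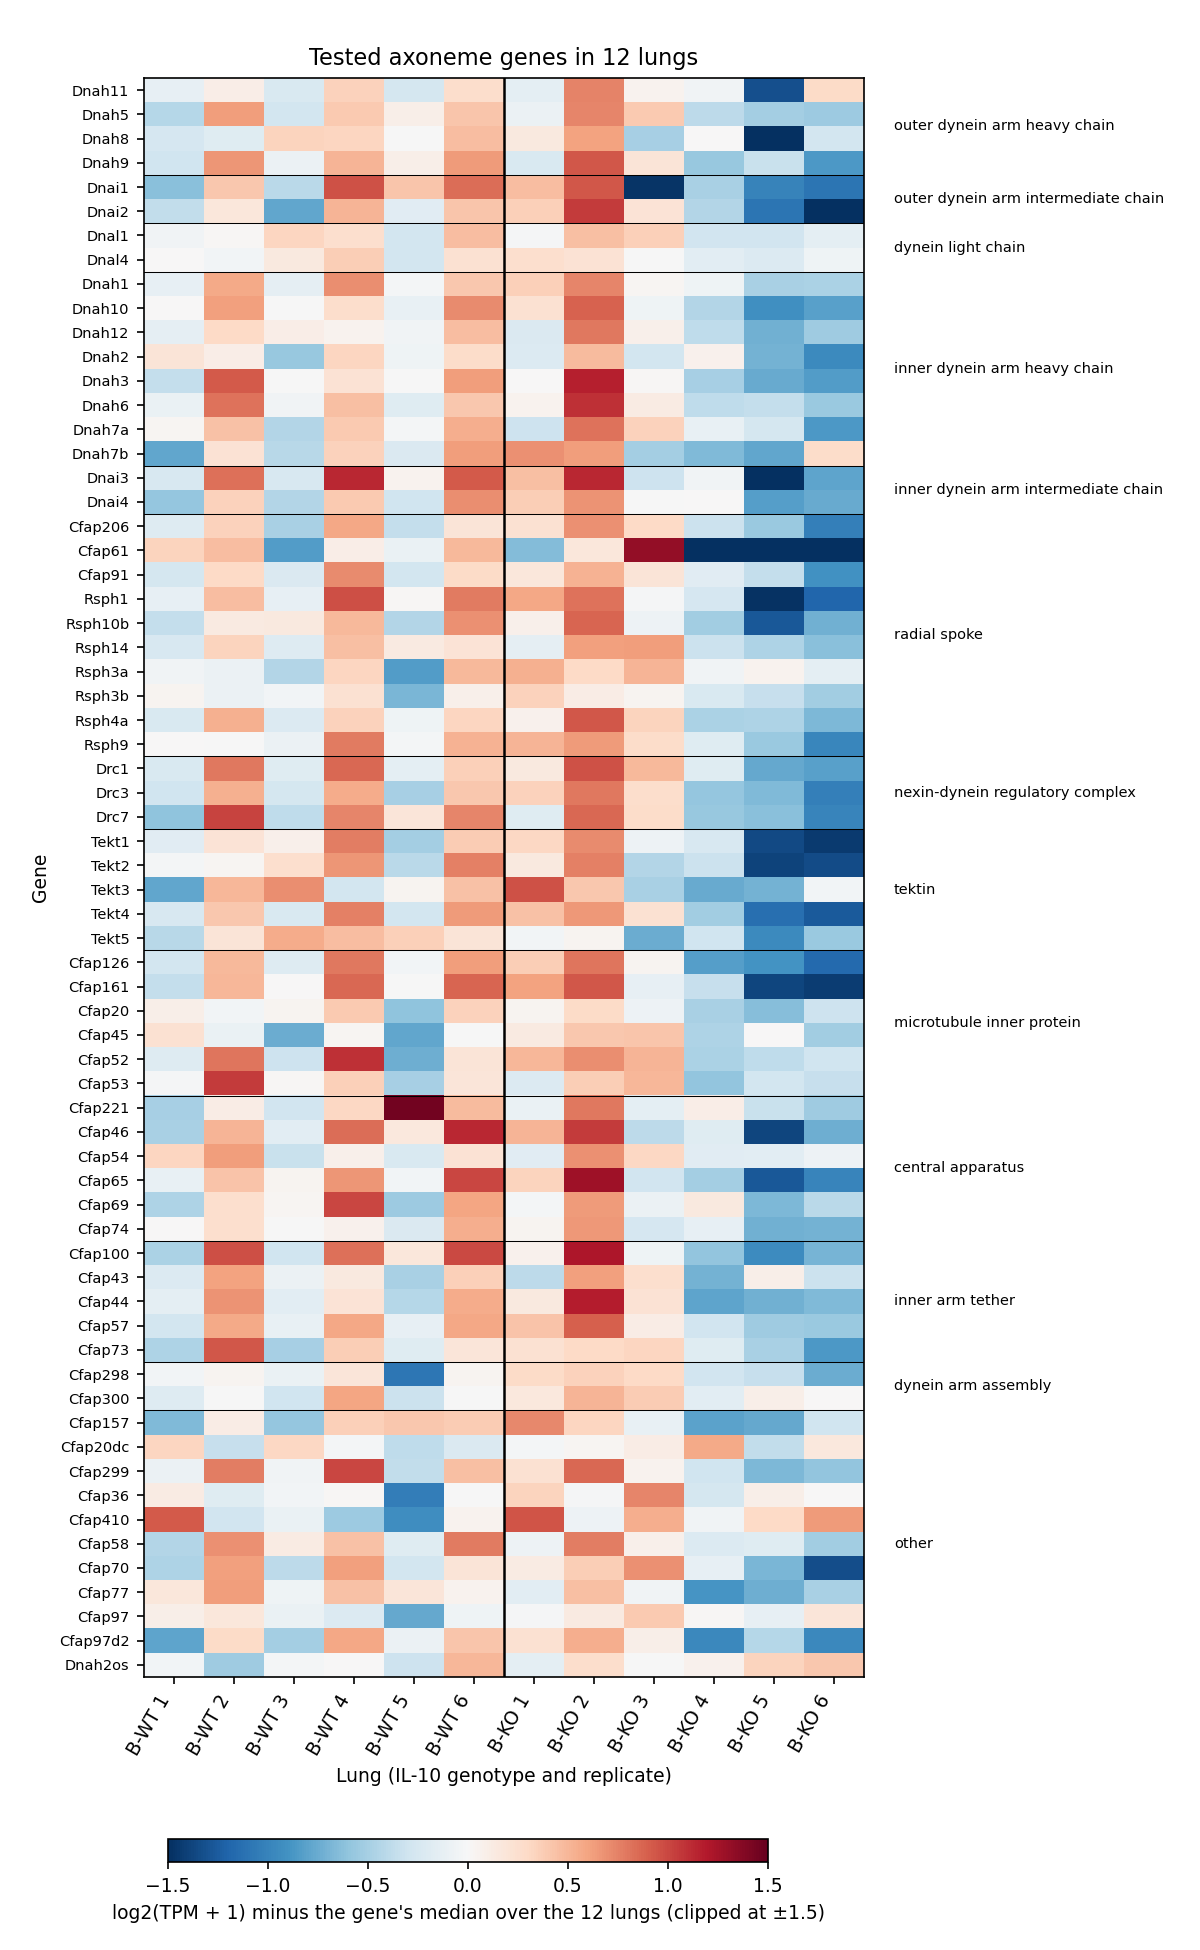
Rows are the 66 tested genes, grouped by the structure they belong to, and columns are the 12 lungs. Color gives log2(TPM + 1) minus the gene's own median, from blue (lower) to red (higher). IL-10 B-WT replicates 2, 4 and 6 and IL-10 B-KO replicate 2 are red in most rows, and IL-10 B-KO replicates 5 and 6 are blue in most rows.

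The spread between lungs differed by genotype. The SD of log2(TPM + 1) was larger in IL-10 B-KO than in IL-10 B-WT lungs for 48 of the 66 axoneme genes (72.7%), against 24.9% of all tested genes. The median SD of the axoneme genes was 0.44 within IL-10 B-WT and 0.59 within IL-10 B-KO lungs, whereas over all tested genes it was 0.44 and 0.31. The genes share the same 6 lungs, and IL-10 B-KO replicates 2, 5 and 6 were at the ends of most of them. IL-10 B-WT replicate 5, among the 3 lowest lungs for 79.3% of all tested genes, enters the IL-10 B-WT SD. The SDs were not compared without that lung. The ratio of the highest to the lowest lung had a median of 4.57 and ran from 1.58 in Dnal4, a light chain gene, to 16.4 in Cfap61, a radial spoke gene.

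Whether the axoneme genes differed by genotype was tested with limma on log2(TPM + 1) over all 15148 genes. At an adjusted p of at most 0.05 (Benjamini-Hochberg) with a log2 fold change of 1 or more in either direction, 0 of 66 axoneme genes were called, against 0.495% of all genes, and the lowest adjusted p among them was 0.290. At an unadjusted p of at most 0.05, 2 of the 66 passed (3.03%), against 12.5% of all genes. Lower means in IL-10 B-KO lungs were found for 57 of the 66 (86.4%), against 36.8% of all genes, whose median log2 fold change was 0.10. The groups overlapped for every axoneme gene tested, and the share without overlap was only 1.02% over all genes. At shares this small, 0 of 66 does not set the axoneme genes apart, and the same holds for the 0 called. Centring each library on its median moved the median of all genes to -0.01 and that of the axoneme genes to -0.33, with 58 lower. Without IL-10 B-WT replicate 5, low for most genes, the medians were -0.02 and -0.28, with 58 lower. Leaving out IL-10 B-KO replicate 2 raised the number at an unadjusted p of at most 0.05 to 16, all lower, and leaving out IL-10 B-WT replicate 2 or 4 or IL-10 B-KO replicate 4, 5 or 6 left 1.

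**Figure D3:**
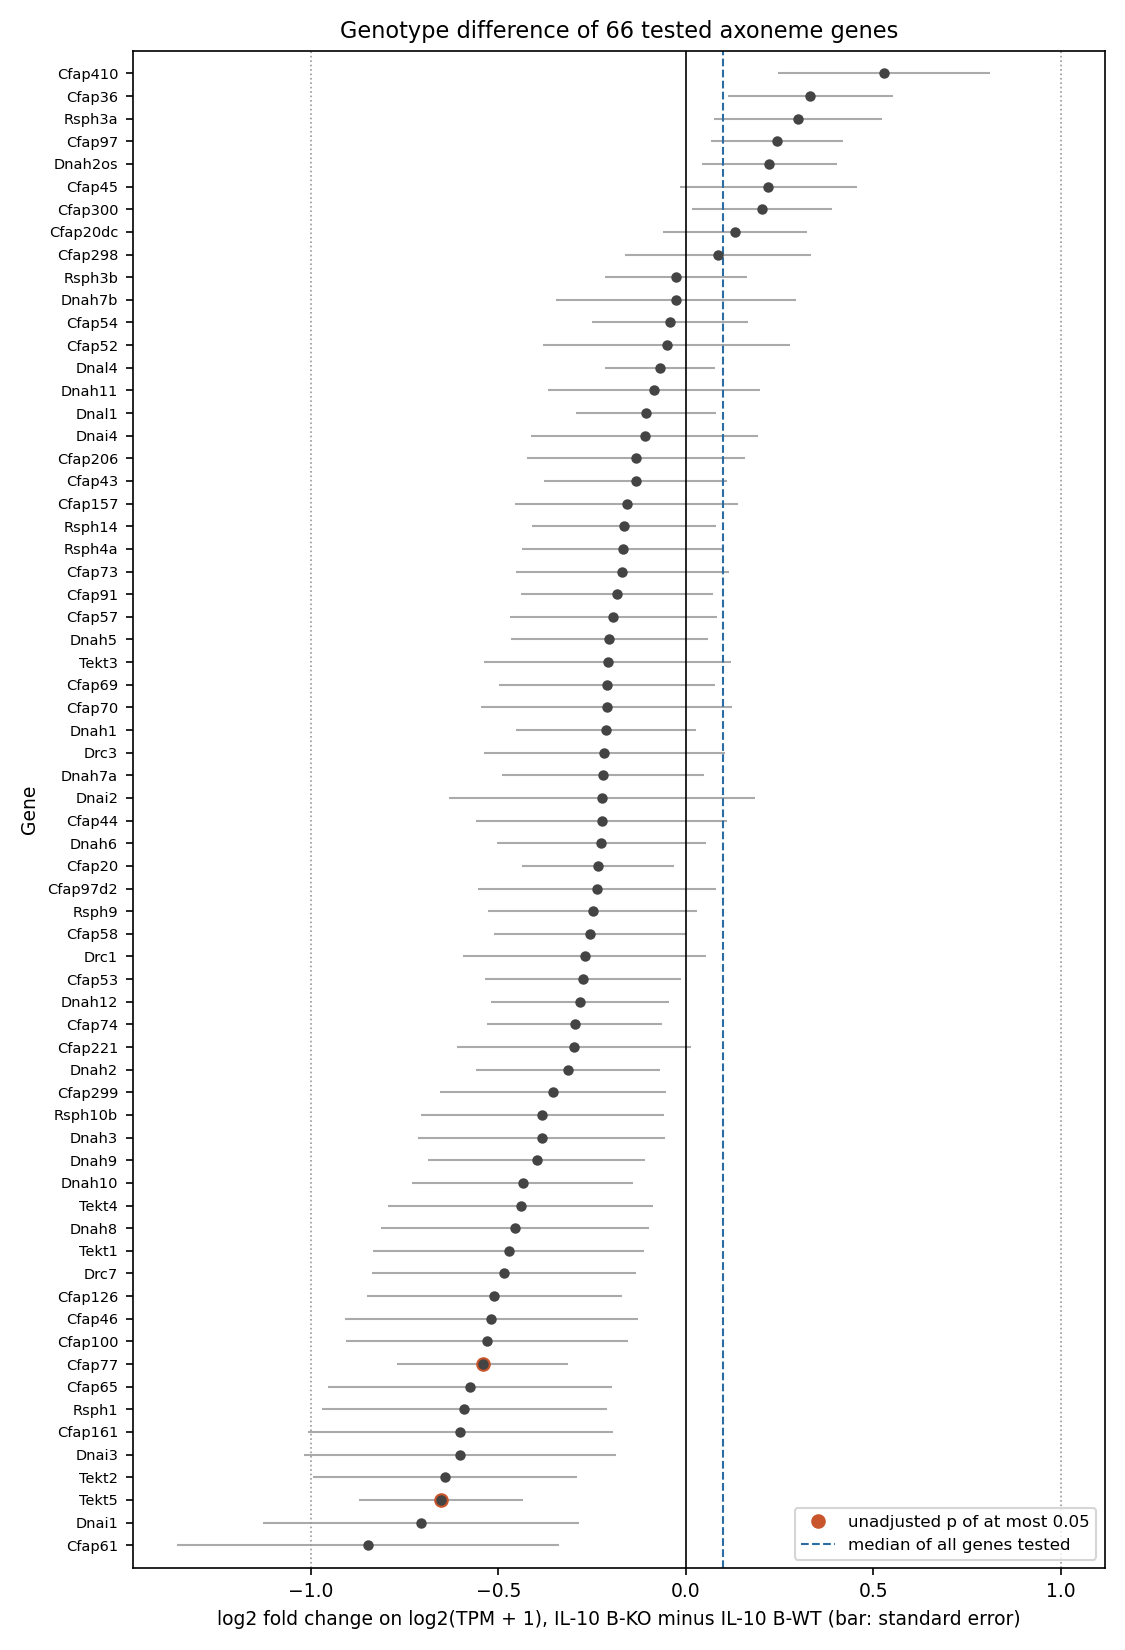
Points are the limma log2 fold changes of the 66 tested genes (IL-10 B-KO minus IL-10 B-WT, on log2(TPM + 1)) with their standard errors, from Cfap61 at -0.85 to Cfap410 at 0.53. The dashed line is the median of all tested genes (0.10), dotted lines mark the fold threshold of 1, and the red points are Tekt5 and Cfap77.

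The outer dynein arms hold the heavy chains that power the beat. Of 5 heavy chain genes, 4 were tested, all with lower means and none passing (log2 fold changes -0.46 to -0.08). Dnah5, whose loss is a common cause of primary ciliary dyskinesia, was low, with a lowest, median and highest value of 0.78, 1.84 and 2.68 TPM across IL-10 B-WT and 0.64, 1.035 and 2.97 TPM across IL-10 B-KO lungs. Its paralog Dnah8, best known from sperm, was above it in all 12 lungs, by 1.81 to 10.9 times (median 5.31), and Dnah9 was above it in all 12 lungs by 1.42 to 2.66 times. Dnah8 was singled out after its values were seen. It was lowest in IL-10 B-KO replicate 5, at 1.23 TPM against 5.46 TPM or more in the other 11 lungs. Dnah11, a heavy chain of the proximal cilium, was likewise 0.53 TPM in that lung, against 2.18 TPM or more elsewhere.

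The intermediate chains anchor the outer arms. Dnai1 (ENSMUSG00000061322, GRCm38 chromosome 4, 41569775 to 41638158, plus strand) was 4.28, 9.89 and 14.8 TPM across IL-10 B-WT lungs (lowest, median, highest) and 1.94, 3.95 and 14.6 TPM across IL-10 B-KO lungs. In 3 IL-10 B-KO lungs it was below the whole IL-10 B-WT range, while IL-10 B-KO replicate 2 was near the top. Its log2 fold change was -0.71 (adjusted p = 0.485 by limma, standard error 0.42). Its partner Dnai2 had 7.76 TPM as the IL-10 B-WT median and ranged from 1.79 TPM in IL-10 B-KO replicate 6 to 17.0 TPM in replicate 2 of the same genotype, with a log2 fold change of -0.22. IL-10 B-KO replicate 3 had 1.94 TPM of Dnai1 and 9.05 TPM of Dnai2, whereas the ratio of both had a median of 1.07 over the 12 lungs. The light chains Dnal1 and Dnal4 were the steadiest, with log2 fold changes of -0.11 and -0.07 and Dnal4 between 23.0 and 36.4 TPM in every lung.

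The inner dynein arms shape the bend of the cilium. Of 10 heavy chain genes, 8 were tested, all with lower means and none passing (log2 fold changes -0.44 to -0.03). Their TPM summed to 20.6 to 38.2 for IL-10 B-WT and 13.4 to 50.0 for IL-10 B-KO, with the highest sum in IL-10 B-KO replicate 2 and the lowest in replicate 5. Dnai3, an intermediate chain of the inner arms, was 4.87, 8.77 and 14.2 TPM across IL-10 B-WT lungs and 1.30, 5.15 and 14.2 TPM across IL-10 B-KO lungs (log2 fold change -0.60, adjusted p = 0.534 by limma, standard error 0.42). Dnah14, singled out after its values were seen, was untested at these levels and ran the other way, from a median of 0.285 TPM across IL-10 B-WT to 0.65 TPM across IL-10 B-KO lungs, with an unadjusted p of 0.0238 (two-sided exact permutation test, n = 6, 1 of 73 genes examined). Dnah2os was above Dnah2 in all 12 lungs, by 3.81 to 31.1 times, and the 312 exon bases they share make up 36.3% of the Dnah2os exons. Its log2 fold change was 0.22 and that of Dnah2 was -0.31, neither past the threshold.

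Radial spokes pass signals from the central apparatus to the dynein arms. Of 11 spoke genes, 10 were tested, 9 with lower and 1 with higher means, none passing. Rsph1 (ENSMUSG00000024033, GRCm38 chromosome 17, 31255019 to 31277383, minus strand), a spoke head gene, was 34.2, 44.8 and 74.1 TPM across IL-10 B-WT and 12.7, 33.9 and 66.5 TPM across IL-10 B-KO lungs. The lowest values, 12.7 and 15.8 TPM, were those of IL-10 B-KO replicates 5 and 6, and the log2 fold change was -0.59 (adjusted p = 0.511 by limma, standard error 0.38). The spoke head genes Rsph9 and Rsph4a had log2 fold changes of -0.25 and -0.17, and Rsph1 exceeded Rsph4a in all 12 lungs, with a median ratio of 15.8. The stalk genes Rsph3a and Rsph3b, which share near-identical sequence, had log2 fold changes of 0.30 and -0.03.

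Cfap61 (ENSMUSG00000037143, GRCm38 chromosome 2, 145934784 to 146215039, plus strand), a gene of the spoke base, had the most negative fold change. It was 4.01, 9.43 and 11.6 TPM across IL-10 B-WT lungs and 1.30, 3.16 and 21.3 TPM across IL-10 B-KO lungs. IL-10 B-KO replicates 4, 5 and 6 were at 1.64, 1.30 and 1.64 TPM, under the whole IL-10 B-WT range, while replicate 3 was at 21.3 TPM, above every other lung. The log2 fold change was -0.85 (adjusted p = 0.489 by limma, standard error 0.51) and -1.27 without IL-10 B-KO replicate 3 (adjusted p = 0.338).

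**Figure D4:**
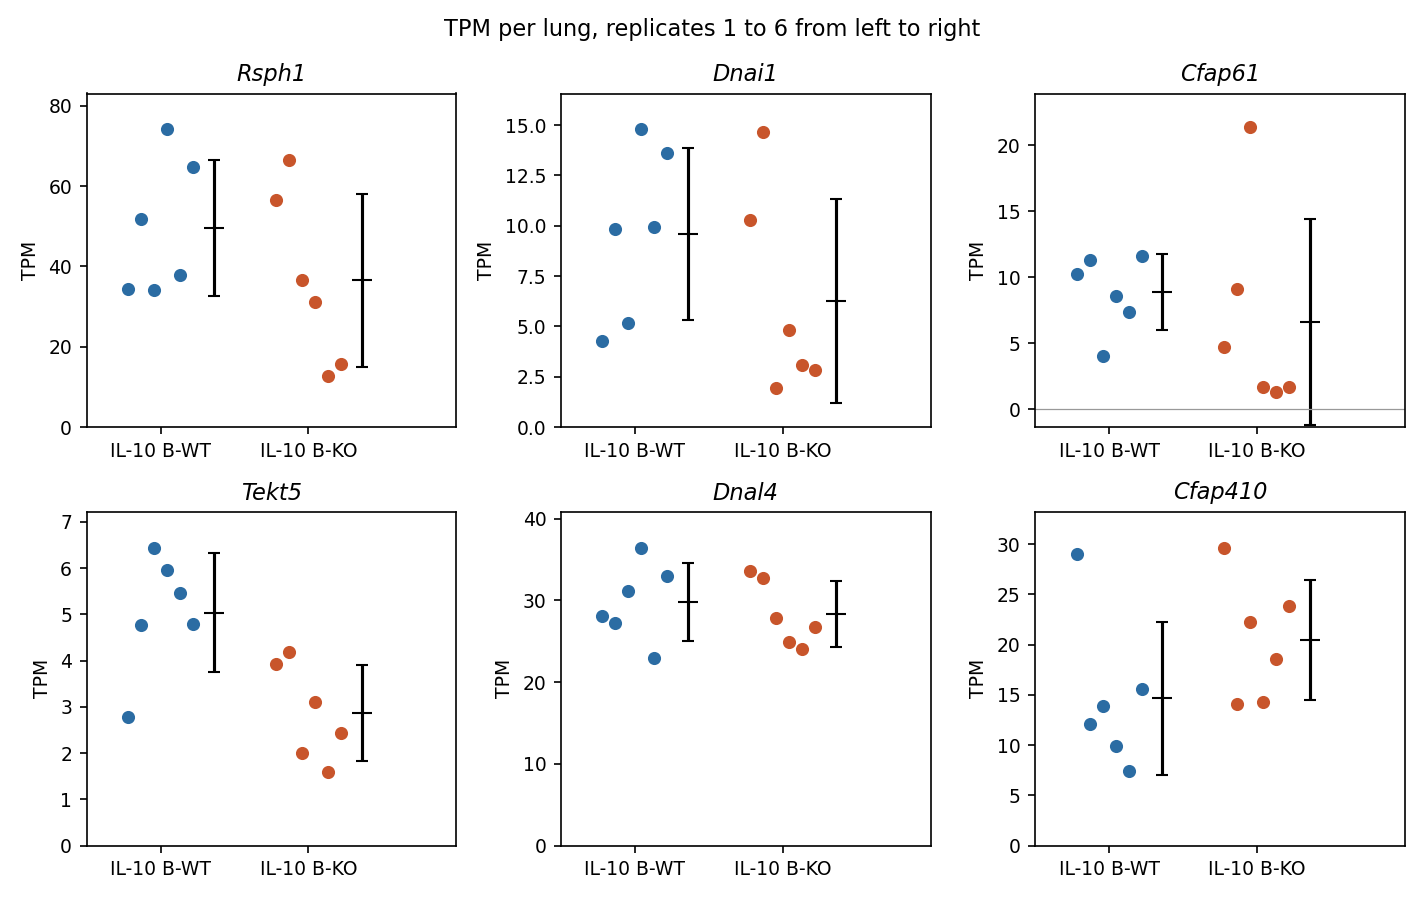
TPM of 6 axoneme genes in each lung, replicates 1 to 6 from left to right within a genotype, with the mean and SD at the side. Rsph1 and Dnai1 are highest in IL-10 B-WT replicates 4 and 6 and IL-10 B-KO replicate 2, Cfap61 peaks at 21.3 TPM in IL-10 B-KO replicate 3, Tekt5 is lower in most IL-10 B-KO lungs, Dnal4 stays between 23.0 and 36.4 TPM, and Cfap410 spans 7.38 to 29.6 TPM.

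Tektins form filaments inside the doublets. All 5 were tested and had lower means, with a median log2 fold change of -0.47. Tekt5 (ENSMUSG00000039179, GRCm38 chromosome 16, 10357948 to 10395490, minus strand) was 2.78, 5.13 and 6.44 TPM across IL-10 B-WT and 1.60, 2.765 and 4.18 TPM across IL-10 B-KO lungs. Of the IL-10 B-WT lungs 5 were above every IL-10 B-KO lung and replicate 1 was not. Its log2 fold change of -0.65 (standard error 0.22) had an unadjusted p of 0.0102 and an adjusted p of 0.290 by limma, and an unadjusted p of 0.0152 in a two-sided exact permutation test (n = 6), in which the smallest possible p was 0.00216. Without IL-10 B-WT replicate 1 the limma adjusted p was 0.0478 and with array quality weights 0.0411, at log2 fold changes of -0.78 and -0.74, under the fold threshold. Tekt2 was 5.05, 7.865 and 12.6 TPM across IL-10 B-WT and 2.06, 5.17 and 12.5 TPM across IL-10 B-KO lungs, with a log2 fold change of -0.64 (limma adjusted p = 0.460). Tekt1 exceeded Tekt3 in all 12 lungs, with a median ratio of 10.9, and had a log2 fold change of -0.47.

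The proteins that line the doublets from inside are encoded by 6 of the genes, summing to 91.3 to 181.7 TPM across IL-10 B-WT and 73.7 to 179.2 TPM across IL-10 B-KO lungs. Of these, 5 had lower means and 1, Cfap45, a higher one (log2 fold change 0.22), none passing. Cfap126 was 34.0, 49.3 and 72.3 TPM across IL-10 B-WT and 17.9, 32.8 and 73.2 TPM across IL-10 B-KO lungs (log2 fold change -0.51), and IL-10 B-KO replicates 4, 5 and 6 were below the whole IL-10 B-WT range. Cfap20 ran from 31.0 to 64.7 TPM (log2 fold change -0.23). Cfap52 and Cfap53, both needed for left-right patterning, had log2 fold changes of -0.05 and -0.27.

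In the other structures, all 6 tested genes of the central apparatus had lower means, led by Cfap65 at -0.58, as did the 5 genes of the inner arm tether and the 3 of the nexin-dynein regulatory complex, among them Drc1 at -0.27, and none passed. Both genes for assembly of the dynein arms in the cytoplasm had higher means, Cfap298 at 0.09 and Cfap300 at 0.20, beside a median of 0.10 over all genes. Both were lowest in IL-10 B-WT replicate 5. A list of 13 other tested genes for assembly and docking had 9 lower and 4 higher means. Of the 11 tested genes placed in none of these groups, 6 had lower and 5 higher means. The largest positive fold change was that of Cfap410, which encodes a basal body protein, at 7.38, 12.985 and 29.0 TPM across IL-10 B-WT and 14.1, 20.4 and 29.6 TPM across IL-10 B-KO lungs (log2 fold change 0.53, adjusted p = 0.454 by limma, standard error 0.28). IL-10 B-WT replicate 1 alone of its group was close to the highest IL-10 B-KO lung. Cfap36, a binding partner of the small GTPase Arl3, and Cfap97 followed at 0.33 and 0.24. IL-10 B-WT replicate 5 was the lowest lung for Cfap410, Cfap36, Cfap97 and the spoke gene Rsph3a. Without that lung their log2 fold changes were smaller, at 0.37, 0.16, 0.12 and 0.15. Cfap77, named because it was the other gene at an unadjusted p of at most 0.05, had a median of 5.355 TPM across IL-10 B-WT and 3.54 TPM across IL-10 B-KO lungs (log2 fold change -0.54, adjusted p = 0.362 by limma, standard error 0.23).

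The regulator Foxj1 was then set beside its program. It was 33.7, 57.8 and 68.0 TPM across IL-10 B-WT lungs (lowest, median, highest) and 31.5, 64.8 and 96.9 TPM across IL-10 B-KO lungs. The 6 lungs in which Foxj1 was highest were the same 6 in which most axoneme genes were above their median. Its log2 fold change was 0.09 (adjusted p = 0.915 by limma, standard error 0.31), but -0.05 after quantile normalization and -0.02 after median centring, so that no direction can be given. The mean log2 level of the axoneme genes minus that of Foxj1 was -3.07 ± 0.22 (SD, n = 6) for IL-10 B-WT and -3.37 ± 0.33 (SD, n = 6) for IL-10 B-KO, and was lowest in IL-10 B-KO replicates 1 and 3. Of the 7 tested transcription factors of ciliogenesis, 2 had lower and 5 higher means (median log2 fold change 0.09), and 0 passed.

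Other cilium genes were counted by list. Of 20 tested axoneme genes with other names, such as Dnali1, Ccdc39 and Dynlrb2, 19 had lower and 1 higher means (median -0.36), and of 9 markers of ciliated cells, such as Tppp3 and Ccdc153, 8 had lower and 1 higher means (median -0.52). The 13 tested genes for assembly and docking of dynein arms were at 9 lower and 4 higher (median -0.06), the 22 genes of intraflagellar transport at 13 and 9 (median -0.01), and the 12 genes of the BBSome and primary cilium at 7 and 5 (median -0.05). None of these genes passed the adjusted threshold. Transport and BBSome genes also serve the primary cilium, which most cell types carry.

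Markers of other cells were set beside the axoneme genes, and they did not all follow them. The 9 club cell genes, from the secretory cells that neighbour ciliated cells, summed to 23510 to 101858 TPM across IL-10 B-WT and 8952 to 105801 TPM across IL-10 B-KO lungs, with the same 3 lungs highest (IL-10 B-KO replicate 2, IL-10 B-WT replicates 4 and 6) and the same 2 lowest (IL-10 B-KO replicates 5 and 6). The next lowest club cell sum, 20594 TPM, was in IL-10 B-KO replicate 3, at an axoneme sum of 677 TPM. Most of each club cell sum was Scgb1a1, with a mean of 40094 TPM, against 3180 TPM for Scgb3a2 and 991 TPM for Scgb3a1. Scgb3a2 had the same highest and lowest lungs. Scgb3a1 ran in another order, highest in IL-10 B-WT replicate 2 (2869 TPM) and lowest in IL-10 B-WT replicate 3 (121 TPM). Of the 9 club cell genes 7 had lower and 2 higher means (median -0.48), and 0 passed. The alveolar type 2 genes, by contrast, all 8 had higher means (median 0.85, 0 passing), and summed to 3332 to 17299 TPM across IL-10 B-WT and 11678 to 21147 TPM across IL-10 B-KO lungs. All 7 neutrophil genes had higher means (median 1.57). By limma 7 were at an unadjusted p of at most 0.05, and 0 passed the adjusted threshold. They summed to 285 to 2514 TPM across IL-10 B-WT and 1048 to 7540 TPM across IL-10 B-KO lungs. Their highest sums, 7540 and 5006 TPM, were in IL-10 B-KO replicates 5 and 6, where the axoneme genes were lowest. Other lungs ran otherwise. IL-10 B-KO replicate 3 came next with 4438 TPM, at an axoneme sum of 677 TPM. IL-10 B-WT replicate 5 had the lowest neutrophil sum, 285 TPM, at an axoneme sum of 480 TPM. The part of these cells in the axoneme values, or that of how much airway each lung sample held, was not tested. Of 6 general epithelial genes all had higher means (median 0.80), of 6 alveolar type 1 genes 4 had lower means (median -0.13), and of 6 endothelial genes all had lower means (median -0.26), none passing. Only 2 of 4 goblet cell genes could be tested. The 5 airway basal cell genes summed to at most 7.46 TPM and the 5 genes of large airway cartilage to at most 0.23 TPM.

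**Figure D5:**
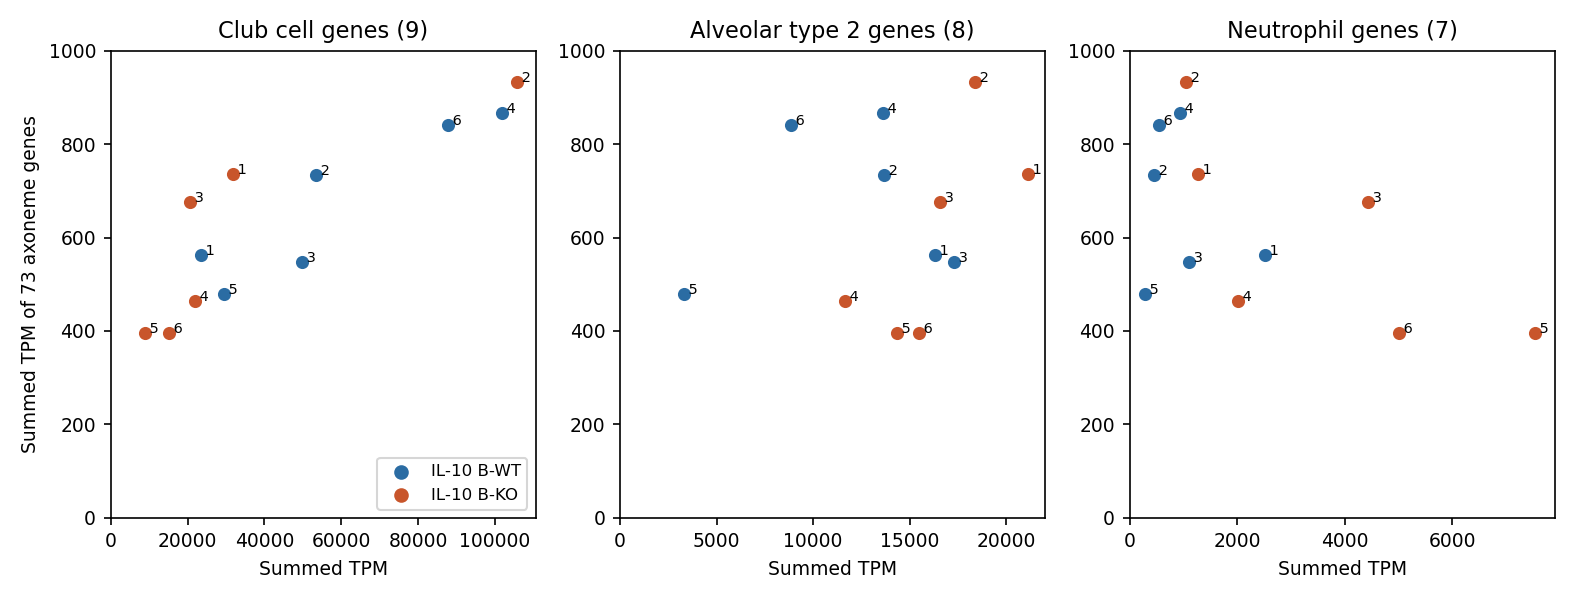
Each point is 1 lung (blue IL-10 B-WT, orange IL-10 B-KO, replicate number beside it). The summed TPM of the 73 axoneme genes, from 395 to 933, is plotted against the summed TPM, of club cell, alveolar type 2 and neutrophil genes. The 3 lungs with the most club cell TPM lie highest, IL-10 B-WT replicate 5 stands alone at 3332 TPM of alveolar type 2 genes, and IL-10 B-KO replicates 5 and 6 lie lowest at the highest neutrophil sums. IL-10 B-KO replicate 3, next in neutrophil sum, lies at 677 TPM, and IL-10 B-WT replicate 5, with the lowest neutrophil sum, at 480 TPM.

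The libraries were checked against their labels. Il10 was low in both genotypes, at 0 to 0.88 TPM across IL-10 B-WT and 0 to 0.58 TPM across IL-10 B-KO lungs, and did not separate them (two-sided exact permutation test, p = 0.745, n = 6). Cd79a, the gene from which Mb1-Cre takes its name, was 15.3 to 258.6 TPM across IL-10 B-WT and 0 to 5.73 TPM across IL-10 B-KO lungs (log2 fold change -4.16, limma adjusted p = 0.0222), and immunoglobulin genes took 0.248% to 15.4% and 0.00199% to 0.0647% of all TPM. All 6 B cell genes had lower means (median -2.47, 2 called), so that the genotypes also differed in B cell RNA. The columns summed to 991646 to 994430 TPM. Rescaling without immunoglobulin genes left the difference in the axoneme level at -0.26.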

How the data were processed

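Total RNA of 12 lungs was sequenced. The authors deposited 1 table of TPM, 1 column per library with 2 decimals, and the submitters' processing notes name fastp, HISAT, RSEM and GRCm38.p5, with versions not given in the sources used here. TPM hold no read counts, so that precision rests on the 6 lungs of each genotype, and since all genes of a library share 1 total, a class of transcripts that grows lowers the others. From these values, log2(TPM + 1) was fitted with limma 3.58.1 in R 4.3.3 (trend, genotype only) over 15148 genes at 1 TPM or more in at least 6 libraries, with Benjamini-Hochberg adjustment over all of them. Fold changes on this scale understate those of low genes. Single genes were compared by exact permutation. On simulated data, 89 of 100 genes changed by 2 and 95 of 100 changed by 3 (log2) were called, with 5 unchanged genes called. Changes as small as those of the axoneme genes (-0.85 to 0.53) were not simulated, so this does not show how well they would be detected. Genes, groups and marker lists were chosen with earlier results of these data known. Genes named singly were the 15 with the highest mean TPM, the 5 largest fold changes in each direction, representatives of each structure, Foxj1, Il10 and Cd79a. Others were named after their values were seen, or as untested. Coordinates and exon overlaps came from GENCODE M21 (GRCm38), and transcripts were aligned with edlib 1.3.9.post1. Nothing says whether the lungs were sequenced in batches. Alternatives tried were other filters, a pseudocount of 0.1, 3 other scalings (immunoglobulin genes removed, quantiles, library medians), quality weights for the libraries, a term for the replicate number, and omission of single libraries.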

Additional observations from a re-analysis of the deposited data

Results flagged for a closer look

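In 6 of 139 sets of 6 lungs examined, 1 lung lay far from the other 5 by Dixon's criterion on log2(TPM + 1). Chance alone passes it in about 1 in 20 sets, and the values are printed here in TPM. IL-10 B-WT replicate 5 was low for Cfap298 (13.69 TPM, the others 27.9 to 34.15), Cfap36 (10.35 TPM, the others 19.59 to 24.52) and Rsph3b (17.63 TPM, the others 27.21 to 34.01), and high for Cfap47 (6.41 TPM, the others 0.21 to 0.42). IL-10 B-WT replicate 4 was high for Cfap300 (4.75 TPM, the others 2.03 to 2.79). IL-10 B-WT replicate 1 was low for Tekt5 (2.78 TPM, the others 4.78 to 6.44). No set of IL-10 B-KO lungs was marked on this log2 scale. The criterion was not applied to TPM without logs, where IL-10 B-KO replicate 2 lay well above the others for some genes. An example is Cfap100 (15.59 TPM, the others 2.72 to 6.52).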

How the results depend on the processing

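No axoneme gene passed both thresholds under any of the fits run, and 2 passed the unadjusted p of 0.05 without a minimum fold. The median log2 fold change of the axoneme genes stayed negative in all alternatives (-0.40 to -0.11), as did the difference in their level (-0.36 to -0.12). The number with lower means was 51 to 58 of 66 when single libraries were left out, and 30 of 37 at a mean TPM of at least 5, where fewer genes were tested. The number at an unadjusted p of at most 0.05 ran from 0 at that filter to 16 without IL-10 B-KO replicate 2, and was 15 with array quality weights. Over the whole table, 75 genes were called, but 6 without a filter, 27 without immunoglobulin genes, 39 after quantile normalization, 36 after median centring, 318 with array quality weights, 1899 at an unadjusted p of at most 0.05, and 19 to 604 when single libraries were left out. The log2 fold change of Foxj1 turned negative after quantile normalization (-0.052), median centring (-0.021) and array quality weights (-0.112), and lay between -0.068 and 0.250 with single libraries left out. The cause was not tested. Same-numbered lungs did not deviate together (correlations -0.29 to 0.05), so that the numbers do not pair them, and with the replicate block 45 genes were called over the whole table, none of them an axoneme gene, and 3 axoneme genes passed an unadjusted p of 0.05. The depth behind low TPM, as in Dnah5 or Dnah14, is unknown.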
